A study of Oryza sativa with 12 samples.

Results

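Transcripts of the 6 Bowman-Birk protease inhibitor genes named RBBI were followed across 6 groups of rice leaves. The genes were taken by name, as every gene whose name in the authors' deposited table for the PIP2-1 experiment contains RBBI, and they are 6 of the 38978 genes in the count table. The family was chosen by the measured rise of RBBI2-1 in the PIP2-1 KO line, so levels in that line relative to its WT are given as a description with no test. Bowman-Birk inhibitors are small, cysteine-rich proteins that bind serine proteases such as trypsin and chymotrypsin and block them. In rice their genes are known to respond to wounding, to jasmonate and to infection, and they are read as part of the leaf's defence against insects and microbes. The first digit in each name stands for the number of inhibitor repeats in the protein.

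The leaves came from 2.5-month-old plants of the indica variety Pusa Basmati-1. The PIP2-1 OE line carried ZmUbiquitin::3xMyc-OsPIP2-1 and the PIP2-7 OE line ZmUbiquitin::3xFLAG-OsPIP2-7, tagged aquaporin genes under a maize promoter that is active in most tissues. The PIP2-1 KO and PIP2-7 KO lines were made with CRISPR-Cas9 and are free of T-DNA, and each experiment had a WT of its own. Each of the 6 groups held 2 libraries, 12 in all. Neither the number of transformation events behind a line nor the plants behind the 2 libraries of a group are given in the labels. A p-value here therefore rests on the spread within pairs of libraries that may be technical repeats. In bulk leaf RNA, fewer cells of a type and less RNA per cell cannot be told apart.

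Library totals ran from 24636211 to 40666127 counts. OsPIP2-1 stood at 131 ± 1.40 CPM (library-scaled counts, TMM; SD, n = 2) in its WT, at 1900.3 ± 44.3 CPM in its OE line and at 139 ± 3.49 CPM in its KO line, a level that does not check the KO label, since an edit can leave the transcript in place. OsPIP2-7 stood at 693 ± 2.80 CPM in its WT, 1683 ± 72.0 CPM in its OE line and 159 ± 3.16 CPM in its KO line (SD, n = 2). The leaf mesophyll markers (PsbO, CAB1R, CAB2R, Lhcb1.1 and the RBCS genes Os12g0274700 and Os12g0292400) had at least 10 counts in each library, while OSH1, OsMADS7 and OsMADS13 of meristems and flowers stayed at or under 0.178 CPM. FON1, the other marker of that list, reached 11.5 CPM.

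All 6 RBBI genes lie on the minus strand of chromosome 1, within 28.2 kb, with Os01g0124550 and Os01g0124600 between RBBI3-3 and RBBI2-3, and each is annotated as 1 exon (IRGSP-1.0). In order of coordinate they are RBBI2-2 (Os01g0123900, 1338241 to 1339098), RBBI2-1 (Os01g0124000, 1341368 to 1342277), RBBI3-2 (Os01g0124100, 1345118 to 1346047), RBBI3-1 (Os01g0124200, 1347665 to 1348723), RBBI3-3 (Os01g0124401, 1353705 to 1354767) and RBBI2-3 (Os01g0124650, 1365586 to 1366432). RBBI2-3 overlaps Os01g0124700 on the plus strand, which had few counts, and the reads were counted by strand. A read that aligned equally in more than 1 place was counted in each, so near-identical copies in this array can share counts.

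RBBI2-2 was the most abundant of the family, and its level spanned from 3.40 to 215 CPM. In the PIP2-1 experiment RBBI2-2 stood at 21.4 and 22.4 CPM in the WT libraries, 20.8 and 22.2 CPM in OE, and 207 and 215 CPM in KO. In the PIP2-7 experiment RBBI2-2 stood at 202 and 196 CPM in WT, 3.40 CPM in each OE library, and 16.5 and 17.5 CPM in KO. The PIP2-1 KO and PIP2-7 WT libraries were therefore the high ones, the PIP2-7 OE libraries the low ones, and only the PIP2-1 WT and OE groups overlapped.

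RBBI2-1, the neighbour of RBBI2-2, followed the same order of groups over a wider range. RBBI2-1 stood at 0.901 and 0.585 CPM in PIP2-1 WT, 0.534 and 0.714 CPM in PIP2-1 OE, and 88.5 and 93.8 CPM in PIP2-1 KO. In PIP2-7 WT it stood at 19.3 and 14.7 CPM and in PIP2-7 KO at 0.346 and 0.234 CPM, while the PIP2-7 OE libraries held 0 and 1 counts of it. Again the PIP2-1 KO and PIP2-7 WT groups stood above the others, and again only PIP2-1 WT and OE overlapped.

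RBBI3-1 had the same pair of high groups. Its level was 3.72 and 3.56 CPM in PIP2-1 WT, 4.68 and 4.70 CPM in PIP2-1 OE, and 33.6 and 35.2 CPM in PIP2-1 KO. It was 26.1 and 27.6 CPM in PIP2-7 WT, 1.66 and 1.27 CPM in PIP2-7 OE, and 1.10 and 1.41 CPM in PIP2-7 KO. The last 2 of these groups overlapped and no other neighbouring groups in the order did.

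RBBI3-3 was a low gene by counts, with 6.56 and 5.13 CPM in PIP2-1 KO, 3.79 and 3.91 CPM in PIP2-7 WT, and between 0.606 and 1.17 CPM in the other 8 libraries. Its high groups were those of RBBI2-2, RBBI2-1 and RBBI3-1. RBBI3-2 was lower still, at 1.13 and 0.534 CPM in PIP2-1 WT, 0.203 and 0.320 CPM in PIP2-1 OE, 1.36 and 1.23 CPM in PIP2-1 KO, 0.408 and 0.232 CPM in PIP2-7 WT, 0.703 and 0.660 CPM in PIP2-7 OE, and 0.115 and 0.117 CPM in PIP2-7 KO. The RBBI3-2 values rest on 8 to 75 counts per group, its PIP2-1 WT libraries overlapped those of PIP2-7 OE, and PIP2-7 WT was not among its high groups.

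RBBI2-3, known in rice as a gene whose overexpression raises resistance to blast fungus, lies at the far end of the array and had another order of groups, with PIP2-1 OE at the top. It stood at 2.74 and 2.52 CPM in PIP2-1 WT, 7.71 and 8.59 CPM in PIP2-1 OE, and 6.47 and 5.71 CPM in PIP2-1 KO. In the PIP2-7 experiment its 6 libraries lay between 2.45 and 3.49 CPM, so the 8 libraries outside PIP2-1 OE and KO stayed close together. Across the 6 group means on the log2(CPM + 1) scale, Pearson's r of RBBI2-3 with the other members was 0.16 to 0.27, against 0.91 for RBBI2-2 with RBBI2-1 and 0.95 for RBBI3-1 with either of those. RBBI3-2 had lower values too, at 0.25 with RBBI2-2, 0.43 with RBBI3-1 and 0.53 with RBBI2-1. These correlations describe 6 points that share libraries and neighbouring, possibly read-sharing, genes. PIP2-1 KO, by whose RBBI2-1 level the family was chosen, is among these points.

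**Figure D1:**
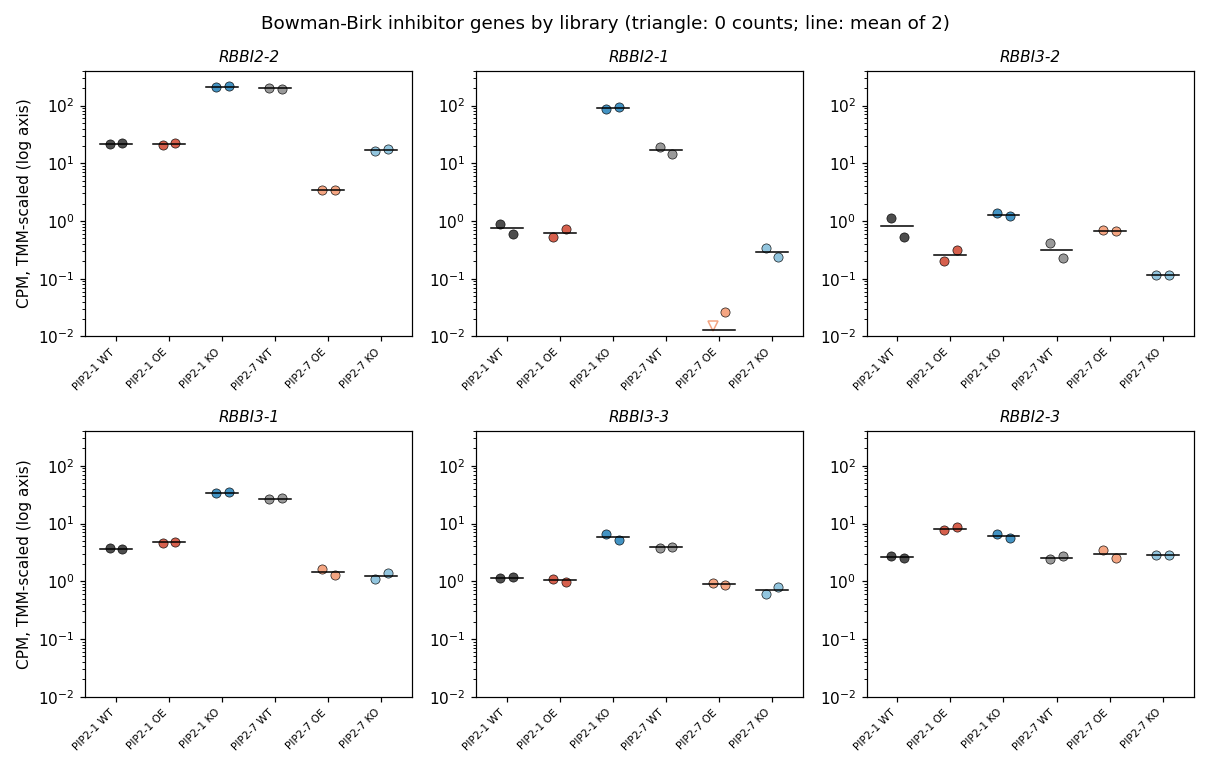
CPM of each RBBI gene (log axis, TMM-scaled) in each of the 12 libraries, by group; a line marks the mean of 2 libraries and a triangle a library with 0 counts. RBBI2-2, RBBI2-1, RBBI3-1 and RBBI3-3 stand highest in PIP2-1 KO and PIP2-7 WT, while RBBI2-3 stands highest in PIP2-1 OE, at 7.71 and 8.59 CPM.

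Summed over the 6 genes, the family stood at 30.9 ± 0.136 CPM in PIP2-1 WT, 36.3 ± 1.75 in PIP2-1 OE and 350 ± 8.46 in PIP2-1 KO (SD, n = 2). It stood at 249 ± 6.04 CPM in PIP2-7 WT, 9.47 ± 1.01 in PIP2-7 OE and 22.2 ± 1.03 in PIP2-7 KO (SD, n = 2). Levels per length (RPKM, from the counts and the gene lengths of the count table) show which genes made up that sum. RBBI2-2 gave 82.0% of the family's RPKM in PIP2-7 WT, 73.3% in PIP2-1 WT and 62.7% in PIP2-1 KO, but 38.0% in PIP2-7 OE. RBBI2-1 gave 25.5% in PIP2-1 KO, 6.60% in PIP2-7 WT and 2.34% in PIP2-1 WT. In PIP2-7 OE, where RBBI2-2 and RBBI2-1 were lowest, RBBI2-3 gave 33.8%, close to the share of RBBI2-2.

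The first comparison asks what overexpression of OsPIP2-1 did to these genes. RBBI2-3 and RBBI3-1 were higher than in WT, RBBI3-2 was lower, and the abundant RBBI2-2 gave no call. RBBI2-3 rose by 1.63 on the log2 scale (SE 0.15; edgeR quasi-likelihood test, Benjamini-Hochberg adjusted p = 1.67e-11). RBBI3-1 rose by 0.36 (SE 0.13; edgeR, adjusted p = 0.0241), and RBBI3-2 changed by -1.60 (SE 0.47; edgeR, adjusted p = 0.0055). The call of RBBI3-1 was lost, at about the same size, without WT replicate 2 or without either OE replicate (0.32, 0.37 and 0.36; edgeR, adjusted p = 0.163, 0.0729 and 0.0888) and with DESeq2 (0.36; adjusted p = 0.0651). That of RBBI3-2 was lost without WT replicate 1 (-1.02; edgeR, adjusted p = 0.175) or OE replicate 1 (-1.31; edgeR, adjusted p = 0.056). RBBI2-2 stood at -0.04 (SE 0.06), RBBI2-1 at -0.20 (SE 0.30) and RBBI3-3 at -0.16 (SE 0.27), with edgeR adjusted p = 0.642, 0.627 and 0.67. The 3 calls among 6 members, 2 higher and 1 lower, compare with 44.1% of all genes tested in this comparison, 23.2% higher and 20.9% lower, a share near that background. The members' median change was -0.098 against 0.0015 over all genes tested.

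In the PIP2-1 KO line, the contrast that singled out RBBI2-1, the log2 differences from WT were 6.97 for RBBI2-1, 3.24 for RBBI2-2, 3.22 for RBBI3-1 and 2.33 for RBBI3-3. They were 1.20 for RBBI2-3 and 0.68 for RBBI3-2. In all 6 genes both KO libraries lay above both WT libraries, and nothing is read from that count. The share of all genes with that order was not computed. Of all genes tested, 62.4% passed edgeR's threshold in this contrast, in either direction, which is another measure. OE and KO of this experiment share 1 WT pair. Relative to that pair, RBBI2-3 stood at 1.63 in OE and 1.20 in KO.

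Overexpression of OsPIP2-7 went with much lower levels of 4 of the 6 genes. RBBI2-2 changed by -5.85 on the log2 scale (SE 0.06; edgeR, adjusted p = 4.02e-48), RBBI3-1 by -4.19 (SE 0.13; edgeR, adjusted p = 3.66e-30) and RBBI3-3 by -2.11 (SE 0.23; edgeR, adjusted p = 1.02e-10). RBBI2-1 went from 1124 counts in the WT pair to 1 count in the OE pair, a ratio of 1243 with a 95% exact counting interval of 223 to 49153. RBBI3-2 was the exception that rose, by 1.11 (SE 0.47; edgeR, adjusted p = 0.0348), a call lost with no filter on low counts (edgeR, adjusted p = 0.0594), with DESeq2 (adjusted p = 0.161) and without WT replicate 2 (0.74; edgeR, adjusted p = 0.283) or either OE replicate (1.05 and 1.15; edgeR, adjusted p = 0.147 and 0.112). RBBI2-3 stood at 0.24 (SE 0.19) and did not pass (edgeR, adjusted p = 0.269). The 5 calls of 6, 4 of them lower, stand beside 67.1% of all genes tested called here, 33.4% higher and 33.7% lower. The members' median change was -3.15, against 0.0028 over all genes tested.

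The PIP2-7 KO line gave falls in the same 4 genes. RBBI2-1 changed by -5.85 on the log2 scale (SE 0.21; edgeR, adjusted p = 3.58e-27), RBBI3-1 by -4.42 (SE 0.13; edgeR, adjusted p = 2.4e-30), RBBI2-2 by -3.55 (SE 0.05; edgeR, adjusted p = 3.49e-44) and RBBI3-3 by -2.46 (SE 0.25; edgeR, adjusted p = 7.33e-12). RBBI3-2 stood at -1.42 (SE 0.66; edgeR, adjusted p = 0.0571), with 8 counts in the KO pair, and passed without WT replicate 2 (-1.78; edgeR, adjusted p = 0.0435) and against the other WT pair (-2.75; edgeR, adjusted p = 5.81e-05). RBBI2-3 stood at 0.14 (SE 0.19; edgeR, adjusted p = 0.546). The 4 calls, all lower, stand beside 63.4% of all genes called, 32.1% higher and 31.3% lower, and the members' median was -3.00 against 0 over all genes. OE and KO of OsPIP2-7 share 1 WT pair. For the 4 called genes that pair stood below PIP2-1 KO alone, while it was the lowest group for RBBI2-3 (2.57 CPM) and not a high one for RBBI3-2.

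Set against each other, the OE and KO lines of OsPIP2-7 differed in 3 of the 6 genes, with 58% of all genes tested called in this comparison (28.4% higher and 29.6% lower in OE), a share near that of the members. RBBI2-2 was lower in OE, at -2.31 on the log2 scale (SE 0.09; edgeR, adjusted p = 2.46e-26). RBBI2-1 was lower too, with 1 count in OE against 20 in KO, a ratio of 21.3 (95% exact counting interval 3.41 to 885). It passed the filter on low counts here only because the WT libraries, where it is high, were in the fit. With only the OE and KO libraries RBBI2-1 was not tested, and 2 of 5 genes were called. RBBI3-2 was higher in OE by 2.52 (SE 0.56; edgeR, adjusted p = 0.000171). RBBI3-1, RBBI3-3 and RBBI2-3 stood at 0.23, 0.35 and 0.10 and did not pass (edgeR, adjusted p = 0.384, 0.338 and 0.672).

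**Figure D2:**
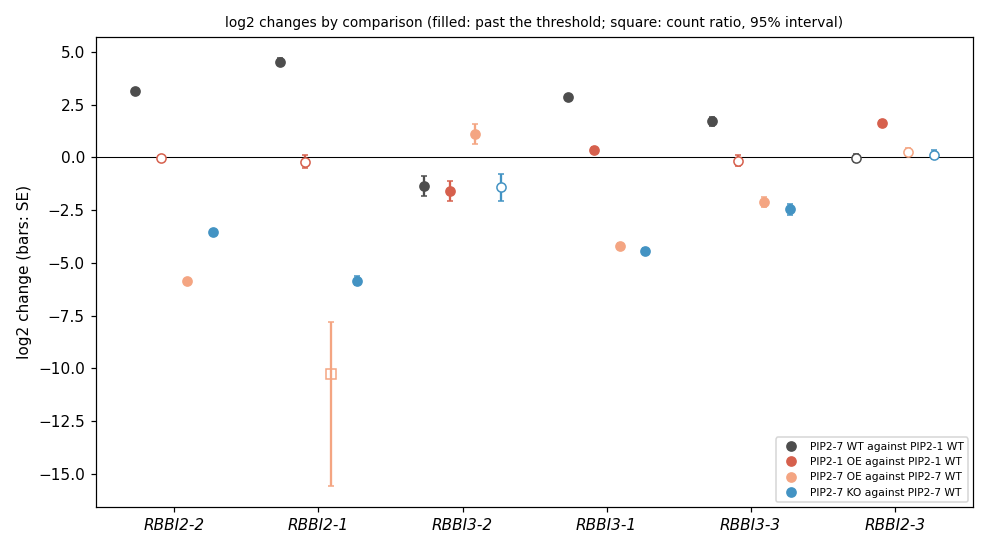
Log2 change of each RBBI gene in 4 tested comparisons, with bars of 1 SE; filled points passed the edgeR threshold, and the open square is the count ratio of RBBI2-1 in PIP2-7 OE with its 95% counting interval. RBBI2-2, RBBI2-1, RBBI3-1 and RBBI3-3 lie above 0 in PIP2-7 WT against PIP2-1 WT and below 0 in PIP2-7 OE and KO, while RBBI2-3 passed only in PIP2-1 OE, at 1.63.

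The WT pairs of the experiments, of 1 variety, tissue and labelled age, differed in the same 4 genes. RBBI2-1 was higher in PIP2-7 WT by 4.55 on the log2 scale (SE 0.17; edgeR, adjusted p = 1.43e-27), RBBI2-2 by 3.16 (SE 0.05; edgeR, adjusted p = 4.97e-48), RBBI3-1 by 2.87 (SE 0.11; edgeR, adjusted p = 7.73e-30) and RBBI3-3 by 1.72 (SE 0.22; edgeR, adjusted p = 1.73e-09). RBBI3-2 was lower there, at -1.34 (SE 0.48; edgeR, adjusted p = 0.0142), but not without PIP2-1 WT replicate 1 (-0.76; edgeR, adjusted p = 0.288) or PIP2-7 WT replicate 2 (-0.98; edgeR, adjusted p = 0.148). RBBI2-3 stood at -0.04 (SE 0.19; edgeR, adjusted p = 0.875). These 5 calls of 6 compare with 56.6% of all genes tested between the WT pairs, where 28.1% were higher and 28.5% lower in PIP2-7 WT. The labels name no day or batch, so a difference between the experiments and one between the lines of different experiments cannot be told apart. The authors' deposited tables had RBBI3-3 the other way, at 0.170 FPKM in PIP2-7 WT and 0.887 FPKM in PIP2-1 WT.

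What the lines showed depended on the WT pair they were set against. Against the PIP2-7 WT pair, PIP2-1 OE stood at -3.19 for RBBI2-2, -4.74 for RBBI2-1, -2.50 for RBBI3-1 and -1.88 for RBBI3-3, so that the rise of RBBI3-1 turned into a fall, while RBBI2-3 kept its rise at 1.67. RBBI3-2 in PIP2-1 OE no longer passed there (-0.26; edgeR, adjusted p = 0.736). Against that pair the PIP2-1 KO values were smaller for RBBI2-1 (2.42), RBBI3-3 (0.61), RBBI3-1 (0.36) and RBBI2-2 (0.088), larger for RBBI3-2 (2.02) and about the same for RBBI2-3 (1.25). In the other direction, PIP2-7 OE against the PIP2-1 WT pair stood at -2.68 for RBBI2-2 and -1.30 for RBBI3-1, and PIP2-7 KO at -0.38 for RBBI2-2 (edgeR, adjusted p = 7.35e-07), -1.30 for RBBI2-1 (edgeR, adjusted p = 0.0077), -1.55 for RBBI3-1 and -0.73 for RBBI3-3 (edgeR, adjusted p = 0.0363). RBBI3-2 in PIP2-7 KO was further from that pair than from its own, at -2.75 (edgeR, adjusted p = 5.81e-05). RBBI3-3 in PIP2-7 OE no longer passed there (-0.36; edgeR, adjusted p = 0.28), and RBBI3-2 turned to -0.21 (edgeR, adjusted p = 0.696). The falls of RBBI2-2, RBBI2-1 and RBBI3-1 in both PIP2-7 lines thus held their direction against either WT pair at a smaller size.

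Whether the OE lines differed in their effect was tested directly, as the PIP2-7 OE effect minus the PIP2-1 OE effect on the log2 scale. The difference passed for 6 of 6 genes, where 62.6% of all genes tested passed, 31.6% with a positive and 30.9% with a negative difference. RBBI2-2 stood at -5.80 (SE 0.09), RBBI3-1 at -4.53, RBBI3-3 at -1.93 and RBBI2-3 at -1.37, with edgeR adjusted p = 9.25e-48, 6.95e-28, 4.43e-06 and 1.92e-06. RBBI3-2 went the other way, at 2.72 (edgeR, adjusted p = 0.000421). RBBI2-1 also passed (edgeR, adjusted p = 2.13e-17), with a fitted value that depends on the prior count, since PIP2-7 OE held 1 count. Each WT pair enters these differences: the OE libraries alone held 21.5 ± 0.984 CPM of RBBI2-2 in PIP2-1 OE and 3.40 ± 0.00117 CPM in PIP2-7 OE (SD, n = 2). RBBI3-3 stood close in these lines, at 1.04 ± 0.0773 CPM in PIP2-1 OE and 0.886 ± 0.0597 CPM in PIP2-7 OE (SD, n = 2). Its WT pairs stood apart, at 1.15 ± 0.0307 CPM for PIP2-1 and 3.85 ± 0.0826 CPM for PIP2-7 (SD, n = 2). The RBBI3-3 difference thus lay mostly between the WT pairs. For RBBI3-3 the authors' deposited log2 changes, 2.22 in PIP2-7 OE and -1.38 in PIP2-1 OE, had the opposite order.

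The authors' own log2 changes, from FPKM, mostly had the direction of those from the counts, with RBBI3-3 apart. In the authors' deposited table RBBI3-3 stood at 0.115 FPKM in PIP2-1 KO and 0.170 FPKM in PIP2-7 WT, where the counts gave 5.50 and 3.62 RPKM, ratios of 47.8 and 21.3, while its ratio in the other groups was 1.05 to 2.88. The log2 changes of RBBI3-3 in the authors' deposited tables were -2.95 in PIP2-1 KO, 2.22 in PIP2-7 OE and 0.82 in PIP2-7 KO, each opposite in sign to those from the counts. The first 2 were not significant there (q = 0.107 and 0.0599) and the third was not tested. In PIP2-1 OE the authors' value was -1.38, not significant, so it lay below that of PIP2-7 OE, where the counts gave the reverse. The authors' FPKM of RBBI3-3 was also lower in PIP2-7 WT than in PIP2-1 WT (0.170 and 0.887), opposite to the counts. RBBI3-3 counts were 14.2% to 19.5% of those of RBBI3-1 in PIP2-7 WT and PIP2-1 KO, the groups where RBBI3-1 was highest, and 20.9% to 66.7% elsewhere. Whether reads of another copy were counted for RBBI3-3 was not tested, and its direction depends on which of the authors' measures is used. For RBBI2-3 the authors' deposited tables gave log2 changes of 2.77 in PIP2-1 OE (q = 0.00033) and 1.17 in PIP2-7 OE (q = 0.00922), the second a call that the counts did not give. Their RBBI2-3 change in PIP2-1 KO was 2.74, so that OE and KO were about level, at 11.7 and 11.5 FPKM, where the counts put OE higher. RBBI3-1 in PIP2-1 OE was not called there, at 0.38 (q = 0.133). The authors' deposited table did not call RBBI2-1 in PIP2-7 OE, at a log2 change of -9.74 (q = 0.381).

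**Figure D3:**
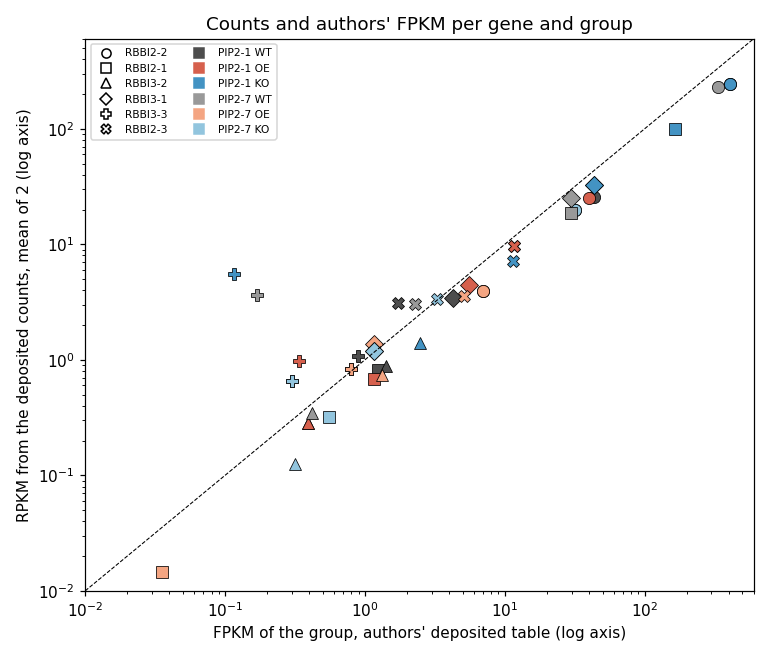
RPKM from the counts (mean of 2 libraries) against the authors' FPKM for each RBBI gene and group, both on log axes; the dashed line marks equal values. RBBI3-3 in PIP2-1 KO and PIP2-7 WT lies far above the line, at 5.50 and 3.62 RPKM against 0.115 and 0.170 FPKM.

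Of the 8 other genes between or within 20 kb of the family, 1 had 10 counts in any library. That gene, Os01g0123700 (1333752 to 1334769, minus strand, without a name in the tables), lies next to RBBI2-2 beyond Os01g0123800. It held 10 and 18 counts in PIP2-1 WT, 8 and 1 in PIP2-1 OE, 183 and 133 in PIP2-1 KO, and 26 and 30 in PIP2-7 WT, with 0 counts in each library of PIP2-7 OE and KO. The gene stood highest in the groups that were high for RBBI2-2. It held 5.45 CPM in PIP2-1 KO, but 0.842 CPM in PIP2-7 WT, nearer the 0.417 CPM of PIP2-1 WT. It was lower in PIP2-1 OE by a log2 change of -1.88 (edgeR, adjusted p = 0.00673) and higher in PIP2-7 WT than in PIP2-1 WT by 0.97 (edgeR, adjusted p = 0.0371). By a floor of 3 counts over a pair of libraries, it was at least 20.6-fold higher in PIP2-7 WT than in PIP2-7 OE and at least 19.3-fold higher than in PIP2-7 KO.

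**Figure D4:**
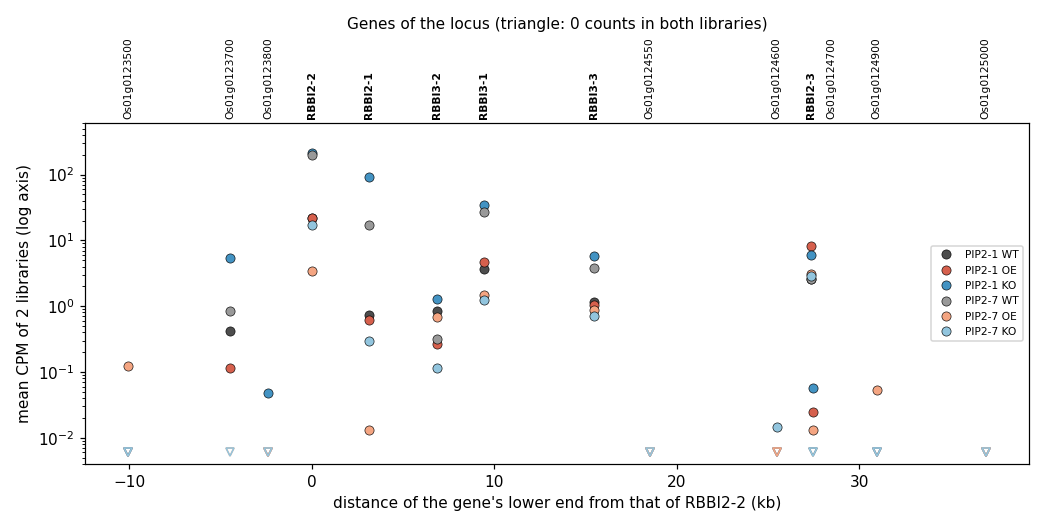
Mean CPM (log axis) of each gene in and around the RBBI array, by distance of its lower end from that of RBBI2-2 in kb; colours mark the 6 groups and triangles 0 counts in both libraries. Among the RBBI genes, RBBI2-2, RBBI2-1 and RBBI3-1 span the widest ranges. Of the other genes Os01g0123700 alone reaches 1 CPM, and it runs from 0 counts in PIP2-7 OE and KO to 5.45 CPM in PIP2-1 KO.

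Outside the family, the genes whose log2(CPM + 1) over the 6 group means was most like that of RBBI2-1 were Os05g0387900 (Pearson's r 0.998), Os04g0676000 (0.993), Os02g0273100 (0.991), Os01g0617900 (0.990) and Os05g0460800 (0.990). All varied far less than RBBI2-1, whose group means ran from 0.013 to 91.1 CPM. Os05g0387900 ran from 5.65 to 7.49 CPM and Os02g0273100 from 4.16 to 31.3 CPM. For RBBI2-2 they were Os05g0406150, Os01g0151200, Os06g0491300 (0.998 each), OsPOP7 (0.995) and Os04g0116600 (0.994), the last from 0.370 to 12.8 CPM. Among 19415 genes ranked, 719 had an r of at least 0.9 with RBBI2-1 and 871 with RBBI2-2, so such likeness over 6 points was common.

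Jasmonate is made from lipids by lipoxygenases (LOX), allene oxide synthase and allene oxide cyclase (AOC), and JAZ proteins repress the genes it acts on. Lists of genes were matched by name, the synthesis list by names such as LOX, AOC, JAR and JMT, so a listed gene need not make jasmonate. A member is counted as risen or fallen, and named, where it passed edgeR's test over all genes. In PIP2-1 OE, 3 genes of the jasmonate synthesis list rose and 9 fell of 14 tested, with the lipoxygenase gene OsLOX1 (Os02g0194700) at -0.58 and OsLOX7 at -0.28 on the log2 scale. In PIP2-7 OE 2 rose and 9 fell of 14, with OsLOX1 at -3.97, OsLOX8 at -1.87 and AOC at -0.70. In PIP2-7 KO 7 rose and 6 fell of 14, with OsLOX1 at -1.29 and AOC at -0.94. Between the WT pairs 5 were higher and 6 lower in PIP2-7 WT of 15, with the same OsLOX1 up by 1.67. The share of the list that passed in these 4 comparisons was 85.7%, 78.6%, 92.9% and 73.3%, against 44.1%, 67.1%, 63.4% and 56.6% of all genes, and the difference was not tested. The level of this OsLOX1 was 387 CPM in PIP2-7 WT, 178 CPM in PIP2-1 KO and 24.4 CPM in PIP2-7 OE. It was 159 CPM in PIP2-7 KO, 120 CPM in PIP2-1 WT and 80.9 CPM in PIP2-1 OE. Its 2 highest groups and its lowest group were those of RBBI2-2, but PIP2-7 KO, low in RBBI2-2, stood near PIP2-1 KO.

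Jasmonate signalling genes gave 1 rise and 8 falls of 15 in PIP2-1 OE, with the repressor genes OsJAZ6 at -0.71 and OsJAZ5 at -0.37. They gave 4 rises and 7 falls of 16 in PIP2-7 OE, with OsJAZ5 at -1.01 and the jasmonate receptor gene OsCOI1b at -0.76, and 8 rises and 5 falls of 16 in PIP2-7 KO, with OsJAZ6 up by 0.91. Between the WT pairs 6 were higher and 3 lower of 16. The share that passed was 60%, 68.8%, 81.2% and 56.2%, near the 67.1% and 56.6% of all genes in PIP2-7 OE and between the WT pairs, and beside 44.1% and 63.4% in PIP2-1 OE and PIP2-7 KO. Median changes of this list were -0.20, -0.043, 0.13 and 0.12 in these 4 comparisons.

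Protease inhibitor genes of other families were followed as well. Of 10 tested, 2 rose and 2 fell in PIP2-1 OE, with the serpin gene OsSRP-FRS at -0.69. In PIP2-7 OE, 3 rose and 1 fell of 9, with RA16 and RAG2, seed allergen genes of the alpha-amylase/trypsin inhibitor family, up by 3.92 and 2.58 from levels under 1 CPM. In PIP2-7 KO 2 rose and 0 fell of 9, with the chymotrypsin inhibitor-like gene OCPI2 up by 1.51, and between the WT pairs 2 were higher and 2 lower of 10. The share of this list that passed was 40%, 44.4%, 22.2% and 40%, below the share over all genes in each comparison, and the difference between the shares was not tested.

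Pathogenesis-related (PR) and chitinase (Cht) genes, often read beside Bowman-Birk inhibitors as defence genes, gave 10 rises and 1 fall of 13 in PIP2-1 OE, with the chitinase gene Cht8 up by 3.36 and OsPR10a by 2.13. In PIP2-7 OE 2 rose and 10 fell of 14, with the glucanase gene OsPR2 (Os01g0944700) at -3.42 and OsPR4 at -3.07. In PIP2-7 KO 3 rose and 8 fell of 14, with these at -5.59 and -4.70 and the chitinase gene Cht11 up by 2.39. In PIP2-7 WT 7 were higher and 2 lower than in PIP2-1 WT of 15, with the same OsPR2 up by 7.36 and OsPR4 by 5.64. This OsPR2 and OsPR4 thus passed in the direction of RBBI2-2 in both PIP2-7 lines and between the WT pairs. Not all members did: Cht11 was at -1.20 between the WT pairs and OsPR10a at 1.34 in PIP2-7 KO. Another OsPR2 gene, Os05g0375400, stood at 22.9 CPM in PIP2-7 WT, 22.1 in PIP2-7 OE, 19.1 in PIP2-7 KO and 24.0 in PIP2-1 WT. The share of the list that passed was 84.6%, 85.7%, 78.6% and 60%, against 44.1%, 67.1%, 63.4% and 56.6% of all genes, the last pair near each other. The medians of this list were 1.31, -1.99, -0.32 and 0.079.

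Some leaf senescence genes and the summed leaf mesophyll markers varied with the summed RBBI level across the groups. PIP2-1 KO, by whose RBBI2-1 level the family was chosen, is among these groups, and RBBI2-3 and RBBI3-2 had other orders of groups. SGR, the stay-green gene of chlorophyll breakdown, stood at 4.20 and 5.74 CPM in PIP2-1 KO and 4.14 and 4.43 CPM in PIP2-7 WT, the groups of high RBBI level. It stood at 20.7 and 20.6 CPM in PIP2-1 OE, 101 and 103 CPM in PIP2-1 WT, 107 and 109 CPM in PIP2-7 KO, and 159 and 156 CPM in PIP2-7 OE. The group with the most SGR was thus the one with the least RBBI. Senescence genes gave 2 rises and 4 falls of 8 in PIP2-1 OE, 7 and 1 of 9 in PIP2-7 OE, 6 and 2 of 9 in PIP2-7 KO, and 3 higher and 5 lower of 9 in PIP2-7 WT, with NYC3, a gene of chlorophyll breakdown, at -1.21, 1.72, 1.93 and -1.54. The share of the list that passed was 75%, 88.9%, 88.9% and 88.9%, against 44.1%, 67.1%, 63.4% and 56.6% of all genes. Other members had other orders: OsNYC4 was highest where RBBI was high, at 738 CPM in PIP2-1 KO and 442 CPM in PIP2-7 WT against 296 to 361 CPM elsewhere, and NYC1 was lowest in PIP2-1 OE, at 108 CPM. OsSAG12 (Os04g0208200) stood at 2.13 to 2.41 CPM in the PIP2-1 groups and 0.189 to 0.844 CPM in the PIP2-7 groups.

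The summed level of the 6 leaf mesophyll markers ran from 37143 to 40428 CPM in PIP2-1 KO and from 22870 to 23234 CPM in PIP2-7 WT. It ran from 17382 to 17663 CPM in PIP2-1 OE, 11085 to 11439 CPM in PIP2-1 WT, 12006 to 12119 CPM in PIP2-7 KO and 7291 to 7413 CPM in PIP2-7 OE, the group of lowest RBBI level. The summed floral and meristem markers stayed at or under 11.6 CPM, those of vascular secondary walls at or under 2.78 CPM and those of roots at or under 2.90 CPM. The part of leaf age or senescence in the RBBI levels was not tested.

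**Figure D5:**
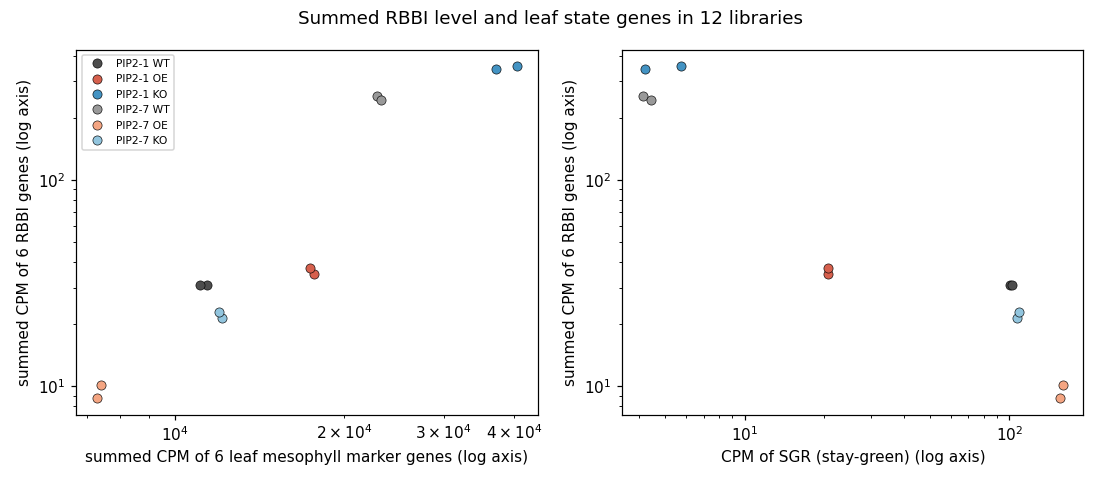
Summed CPM of the 6 RBBI genes (log axis) in the 12 libraries, against the summed CPM of 6 leaf mesophyll markers (left, log axis) and the CPM of SGR (right, log axis), coloured by group. The PIP2-1 KO and PIP2-7 WT libraries combine RBBI sums of 245 CPM or more with SGR at or under 5.74 CPM, and the PIP2-7 OE libraries combine the lowest RBBI sums with the most SGR. The family was chosen by its RBBI2-1 level in PIP2-1 KO.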

How the data were processed

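Leaf RNA of 12 libraries was sequenced. The authors deposited raw read counts per gene, made per the file headers with featureCounts 1.4.0 on IRGSP-1.0 with Ensembl Plants annotation release 52, by strand, with multi-mapping reads counted at each place. The deposited comparison tables hold the authors' FPKM per group, log2 fold changes, p-values and q-values, from Cuffdiff 2.2.1 per the submitters' processing notes, which also name Trim Galore, HISAT2 and Cufflinks. Gene names were read from these tables, as were the values credited to the authors. FPKM of a pair's second group was recovered from the first group's FPKM and the log2 fold change.

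Groups and replicate numbers come from the sample titles. In R 4.3.3, counts were filtered with filterByExpr, scaled by TMM and tested with edgeR 4.0.16 (glmQLFit, robust, and glmQLFTest). The p-values were adjusted by Benjamini-Hochberg across every gene tested, and a call means an adjusted p under 0.05. The 6 libraries of an experiment were fitted together, and all 12 where experiments are compared. The SE is |log2 change| / sqrt(F), with F from the quasi-likelihood test. The procedure was tested on simulated data. Levels are TMM-scaled CPM over all 12 libraries, and RPKM was computed from the counts and the table's gene lengths. Where a group held 1 count, a count ratio with an exact (Clopper-Pearson) interval is given, which like the floor of 3 counts covers counting error only. At the depth used, 1 CPM stood for 25.9 to 40.6 counts. Replicates of a group differed by more than sampling noise (chi-square per degree of freedom 2.50 to 7.69).

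The members, gene lists and tests were chosen with earlier results of these data known. The genes named are the RBBI genes, genes between them or within 20 kb, the 5 genes most like RBBI2-1 and RBBI2-2 among those with a mean of at least 1 CPM, up to 4 called members of each list by smallest p (of which examples are given), the markers and both targets. Genes with 3 or fewer counts in a group compared were not given as examples. The lists were jasmonate synthesis, jasmonate signalling, other protease inhibitors, stress and defence markers, and leaf senescence. Alternatives were DESeq2 1.42.0, RLE scaling, all genes without a filter on low counts, a replicate block, nuclear genes only, only the libraries compared, each library left out in turn, the WT pair of the other experiment and the authors' FPKM. Leaving RBBI3-3 out of the counts of calls was added after seeing the data. No sequence is shown.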

Additional observations from a re-analysis of the deposited data

Results flagged for a closer look

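The effect of overexpression on the RBBI genes differed between the OsPIP2-7 and OsPIP2-1 lines by edgeR's test of that difference (PIP2-7 minus PIP2-1, log2 scale, adjusted over all genes). It was -5.80 for RBBI2-2, -4.53 for RBBI3-1, -1.93 for RBBI3-3, -1.37 for RBBI2-3 and 2.72 for RBBI3-2 (edgeR, adjusted p = 9.25e-48, 6.95e-28, 4.43e-06, 1.92e-06 and 0.000421). For RBBI2-1 the fitted difference was -9.72 (edgeR, adjusted p = 2.13e-17), and since PIP2-7 OE held 1 count of it, its size depends on the prior count and is no bound. The WT pairs of the experiments enter each of these values. The RBBI3-3 difference lay mostly between them, since its OE groups stood close, at 1.04 CPM in PIP2-1 OE and 0.886 CPM in PIP2-7 OE. For RBBI3-3 the authors' deposited log2 changes had the opposite order, at 2.22 in PIP2-7 OE and -1.38 in PIP2-1 OE.

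The KO lines lay on opposite sides of their WT for 5 of the 6 genes: both PIP2-1 KO libraries were above both PIP2-1 WT libraries, and both PIP2-7 KO libraries were below both PIP2-7 WT libraries. Of all genes tested 62.4% were called in the first contrast and 63.4% in the second, in either direction, which is another measure. The share of all genes whose KO lines lay on opposite sides was not computed, and nothing is read from the count of 5. The log2 changes in PIP2-7 KO were -3.55 for RBBI2-2, -5.85 for RBBI2-1, -1.42 for RBBI3-2, -4.42 for RBBI3-1 and -2.46 for RBBI3-3. RBBI3-2 did not pass in PIP2-7 KO (edgeR, adjusted p = 0.0571), and in the authors' deposited tables RBBI3-3 had the opposite sign in both KO lines (-2.95 and 0.82). The difference between the KO lines was not tested, because the genes were chosen from PIP2-1 KO. Against the PIP2-7 WT pair the PIP2-1 KO values were smaller for RBBI2-2, RBBI2-1, RBBI3-1 and RBBI3-3.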

How the results depend on the processing

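With the WT pair of the other experiment as the reference, the RBBI genes past the threshold numbered 5 in place of 3 in PIP2-1 OE and 3 in place of 5 in PIP2-7 OE, and the untested median in PIP2-1 KO moved from 2.78 to 0.93. There RBBI3-1 turned to -2.50 in PIP2-1 OE and RBBI3-2 to -0.21 in PIP2-7 OE. Leaving out 1 library at a time gave 1 to 2 calls in PIP2-1 OE, the count of 1 without OE replicate 1. Over these fits RBBI2-2 ran from -0.086 to 0.014 and RBBI2-1 from -0.54 to 0.095 in PIP2-1 OE. RBBI2-3 ran from -0.00075 to 0.45 in PIP2-7 OE, from -0.14 to 0.31 between PIP2-7 OE and KO, and from -0.12 to 0.033 between the WT pairs, and none of these passed. The replicate numbers did not pair the libraries (correlations of deviations -0.121 to 0.0508), and a replicate block gave 3, 5, 4, 3, 5 and 6 calls, as without it, with RBBI2-3 between the WT pairs at 0.013. The cause of these changes was not tested. RLE scaling, no filter, nuclear genes only and only the libraries compared kept each count of members called within 1.5 times. DESeq2 gave 2, 4, 4, 3, 5 and 6 calls, and without RBBI3-3 there were 3, 4, 3, 3, 4 and 5. Levels in the authors' FPKM differed from the RPKM by more than the SD of 2 libraries in 32 of 36 gene and group pairs. Counts limit RBBI3-2 most, with 8 to 75 per group.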
